A study of Rattus norvegicus with 20 samples.

Results

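Cytosolic ribosomal protein transcripts were followed in the liver of male Wistar rats under mild food restriction. The members were all probe sets of the array that the platform annotation gives to 1 gene with a symbol starting in Rpl or Rps and a digit, or named Rplp0, Rplp1, Rplp2 or Rpsa, with the Rps6k kinases left out. This gave 44 of the 10411 genes named by a single-gene probe set, measured by 50 of 15866 probe sets. Rats of 6 weeks, the age at which the diet began, received a diet cut by 5, 10, 20 or 30% or uncut food (control) for 1 week or 1 month, and the liver was taken after 16 h without food. The labels of the 1 month arrays give an age of 9 weeks and those of the 1 week arrays 6 weeks. RNA of 5 rats was pooled for each of the 10 conditions, and each pool was hybridised to 2 Affymetrix rat arrays, which are technical repeats. A condition was therefore 1 pool, the replicate in every fit was the pool (n = 10), and no spread between rats was measured.

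Ribosomal proteins are the protein part of the ribosome, the particle that translates messenger RNA. The small subunit reads the message and the large subunit joins amino acids, while an acidic stalk on the large subunit recruits translation factors. Their transcripts are abundant in hepatocytes, and many start with a run of pyrimidines, the terminal oligopyrimidine tract, through which nutrient signalling by the mTOR kinase controls their translation more than their amount. A transcript level is thus not a measure of ribosome number or of protein synthesis.

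The promoters show how far the members share that start. RefSeq promoter sequences (GRCr8) were matched to 39 of the 44 genes, 37 by gene ID and 2 by symbol (Rpl37a and Rps9). The window of 30 bases from 15 before the annotated start was searched on the strand that reads as the RNA for 2 overlapping features. A C at the first transcribed base followed by 4 bases that are each C or T was found in 11 of 39 genes (28.2%), against 2.63% of the 33469 promoters in the table. A run of at least 8 such bases was found in 23 of 39 (59%), against 11.4%. The windows of the genes that the values below turn on, and of Rpl19 and Rplp0, which like Rpl37a have the C and 4 pyrimidines at the start, are given with the longest run of C and T in capitals.
Rpl41 (chr7:1563483-1563512, minus strand): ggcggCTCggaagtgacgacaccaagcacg
Rps16 (chr1:92770643-92770672, plus strand): cctggaaaatcggtcggggtggCCCCaagc
Rpl37a (chr9:81748076-81748105, plus strand): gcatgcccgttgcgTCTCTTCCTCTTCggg
Rps15a (chr1:181860270-181860299, minus strand): cggcgTTTTCTTTCCacagtcaccatggtg
Rpl19 (chr10:83519049-83519078, plus strand): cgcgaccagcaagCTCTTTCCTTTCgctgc
Rplp0 (chr12:46718376-46718405, minus strand): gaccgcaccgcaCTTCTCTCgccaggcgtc
The longest run was 13 bases in Rpl37a, 12 in Rpl19, 10 in Rps15a and 8 in Rplp0, and only 3 in Rpl41 and 4 in Rps16. A match is a description of letters at an annotated start, which can lie some bases from the start used in liver.

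Of the 50 probe sets, 46 passed the filter on low signal, for 42 genes. These were 26 genes of the large subunit, 12 of the small subunit, Rplp0 of the stalk and 3 paralogues (Rpl7l1, Rps27l and Rps4y2). The 4 that did not pass were second probe sets of Rpl14 and Rps24 and the only ones of Rpl30 and Rpl3l. Rplp1, Rplp2, Rps27a and Rps19 had no probe set among the members. A gene is described by its brightest probe set unless said otherwise. Ribosomal protein genes have many near-identical copies in the genome, so a signal may hold RNA of a copy. Names that mark probes shared between transcripts, of the same gene or of others, were carried by 5 probe sets of 4 members (Rpsa, Rpl13a, Rps24 and Rpl3l). A further 34 ribosomal probe sets list several genes and are used only as a group.

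Levels are in signal units after quantile normalization. They describe 1 probe set each and cannot be compared between genes as amounts. The 5 brightest tested genes were Rps29 (mean of 10 pools 2748), Rpl7a (1965), Rpl37a (1828), Rps23 (1613) and Rpl5 (1468). The dimmest were Rps4y2 (19.3), Rpl39 (27.2), Rps27l (31.6), Rpl7l1 (145) and Rpl21 (336).

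The members varied little between pools. The range over the 10 pools had a median of 0.34 on the log2 scale (1.27-fold) and was under 0.5 in 36 of 42 genes. Over all 9520 probe sets tested the median range was 0.73 (1.66-fold). The members were also brighter, with a median signal of 844 against 45.1, with an SD of 0.0989 between paired arrays against 0.236. The part of brightness in the narrower range was not tested. The narrowest ranges were those of Rpl6 (0.18), Rpl27 (0.19), Rpl22 (0.20), Rpl5 (0.21) and Rpsa (0.22). Rpl5 binds the 5S ribosomal RNA with Rpl11, and Rpsa is a small subunit protein also known as the laminin receptor precursor. The widest ranges were those of Rpl37a (1.82), Rpl39 (1.43), Rps4y2 (0.93), Rps15a (0.59) and Rpl41 (0.50, as for Rpl12).

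Compared with control pools, nearly all members lay slightly lower in restricted pools, and 1 of them passed the test. In the comparison of the 8 restricted with the 2 control pools, with duration as a covariate, Rpl41 fell and no member rose (limma, adjusted p under 0.05 over all 9520 probe sets). In that direction 2.11% of all probe sets tested were called, and 5.27% in either direction, so 1 of 42 is not more than the background. The sign was shared more widely. The difference was below zero in 40 of 42 genes (95.2%), against 49.7% of all tested, with a median of -0.097 against 0.002. This held for 25 of 26 large subunit genes (median -0.097), for 12 of 12 small subunit genes (median -0.114), for Rplp0 and for 2 of 3 paralogues. All these signs share the same 2 control pools. Members were also brighter than all tested (median signal 844 against 45.1). Of 9 hepatocyte markers, each at a mean signal of 1921.7 or more, 7 were below zero with a median of -0.045, and 1 was called higher. The part of brightness in the shared sign was not tested. The 34 probe sets of several ribosomal genes gave 29 below zero with a median of -0.123 and 0 called. At an unadjusted p under 0.05 there were 5 of these, against 1797 of all 9520 tested.

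The size depended on the scaling of the arrays, since the deposited signals were on the whole higher in restricted pools. On the signals as deposited only 5 of 42 members were below zero and their median was 0.117, while the median of all tested was 0.251. Relative to the median of all tested, members stood at -0.100 after quantile normalization and at -0.133 on the signals as deposited, after median centring and after trimmed mean scaling. They lay under that median in 40 of 42 genes in the first case and in 41 of 42 in the others. Those others differ from each other only by a constant for each array. Their relative values are therefore the same by construction, and their agreement adds nothing. A share of the hybridised RNA was measured, so a lower amount of these transcripts and a higher amount of all others cannot be told apart.

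**Figure D1:**
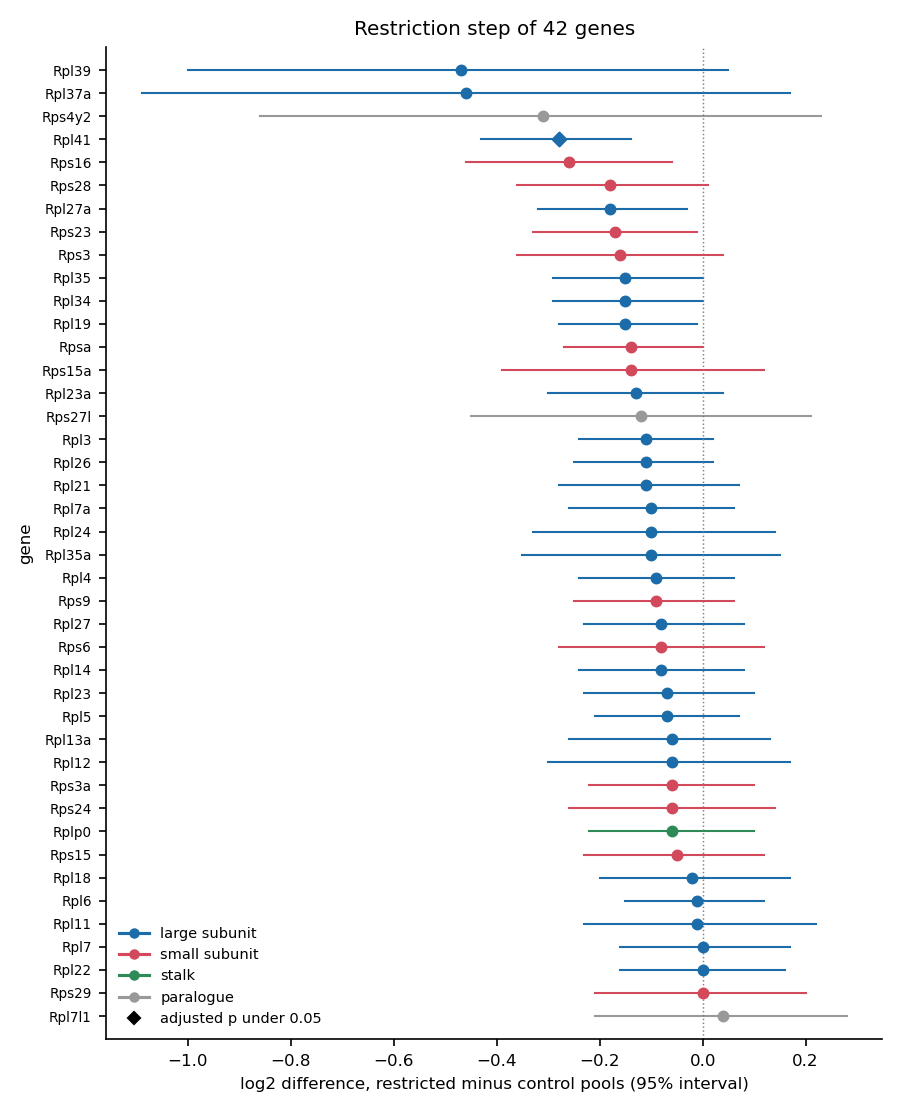
Log2 difference of restricted minus control pools for each of 42 genes (points) with its 95% interval (lines), coloured by role. All but 2 points lie below zero, most between 0 and -0.2, and the adjusted p is under 0.05 for Rpl41 only (diamond).

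Rpl41, the smallest protein of the large subunit, had control signals of 1337 and 1520.1 on the 2 arrays at 1 week and 1473 and 1664 at 1 month. At 1 week the arrays read 1259 and 1349 at 5%, 1101 and 1107 at 10%, 1207 and 1181 at 20%, and 1328 and 1223 at 30%. At 1 month they read 1279.9 and 1192 at 5%, 1262 and 1223 at 10%, 1235 and 1229.8 at 20%, and 1259 and 1235 at 30%. All 8 restricted arrays lay below both controls at 1 month, while at 1 week 1 array of the 5% pool lay above the lower control. The difference was -0.28 ± 0.068 on the log2 scale (SE, n = 10 pools, limma adjusted p = 0.0299), and all 8 restricted pools lay below their control. The call was lost without the arrays numbered 2 (-0.18, adjusted p = 0.274), without the control pool of 1 week (adjusted p = 0.131) or 1 month (adjusted p = 0.363), with median centring (adjusted p = 0.189) and on the signals as deposited (-0.06, adjusted p = 0.877). It was also lost, with adjusted p from 0.0504 to 0.0803, without array 2 of either control or of the 30% pool at 1 week, and without the 20% pool at 1 week or the 10% or 20% pool at 1 month.

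Rps16, a small subunit protein near the decoding site, was next in the order of p, at -0.26 ± 0.0912 (limma adjusted p = 0.13). Its control arrays read 1268 and 1215 at 1 week and 1223 and 1233 at 1 month. At 1 week the restricted arrays read 1297 and 999 at 5%, 952 and 929 at 10%, 1046 and 948 at 20%, and 1243 and 1189 at 30%. At 1 month they read 938 and 1010.5 at 5%, 919 and 934 at 10%, 1077 and 1016 at 20%, and 1124 and 964 at 30%. The groups did not overlap at 1 month and did so at 1 week, where the 30% pool was close to control. Rpl27a, of the large subunit, came after it at -0.18 ± 0.0657 (limma adjusted p = 0.155), with control pools at 1619.5 and 1493 and restricted pools from 1282 to 1479.

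Rpl37a, a zinc finger protein of the large subunit, had the widest range, and 1 pool set it. The control arrays read 2539 and 2267 at 1 week and 2313 and 2347.5 at 1 month. The arrays of the 10% pool at 1 month read 479 and 959, which were unlike each other and far below every other array, the lowest of which read 1545. The other restricted arrays ran from 1803 to 2368 at 1 week and from 1545 to 1954 at 1 month, and all 8 restricted pools were below their control. The step was -0.46 ± 0.291 (limma adjusted p = 0.427).

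**Figure D2:**
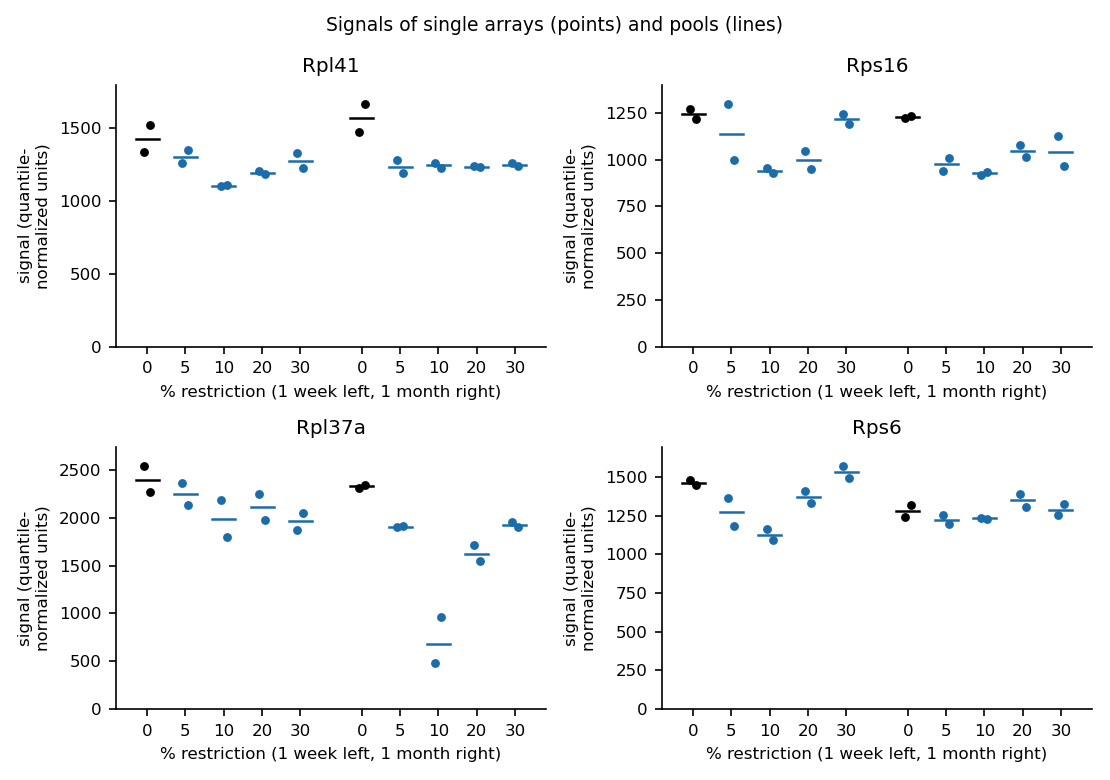
Signals of single arrays (points) and their geometric mean in each pool (lines) for Rpl41, Rps16, Rpl37a and Rps6, against percent restriction at 1 week (left) and 1 month (right), with control pools in black. Rpl37a drops to 479 and 959 in the 10% pool at 1 month, while Rps6 at 30% for 1 week lies above its control.

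Of the members always described for their roles, none passed the test in the step. Rplp0, the base of the stalk and often used as a reference gene, had pool signals of 1074 in control and 1004, 901, 997 and 1069 at 5, 10, 20 and 30% for 1 week. At 1 month they were 986 in control and 936, 968, 1009.9 and 1020.0, a range in which restricted pools lay on both sides of control. Its step was -0.06 ± 0.0723 (limma adjusted p = 0.716). Rps6, the small subunit protein phosphorylated by S6 kinases, had pools of 1463 in control and 1270.4, 1125, 1370.1 and 1529.7 at 1 week, and 1279 in control and 1223, 1233, 1348 and 1287 at 1 month. Its step was -0.08 ± 0.0939 (limma adjusted p = 0.706). Rpl5 and Rpl11, which can also bind Mdm2, were at -0.07 ± 0.0652 and -0.01 ± 0.103. Rpsa was at -0.14 ± 0.0635 and Rpl22, which has roles outside the ribosome in T cells, at 0.00 ± 0.073. Rpsa lay below control in all 8 restricted pools, and in the 10% pool at 1 week Rps6 was at -0.38 and Rplp0 at -0.25.

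The paralogues did not move together. Rpl7l1, a biogenesis factor related to Rpl7, was the only gene with a step above zero by more than 0.01, at 0.04 ± 0.113 (limma adjusted p = 0.907). Rps27l, a paralogue of Rps27 known as a target of p53, was at -0.12 ± 0.152 and Rps4y2, a paralogue of Rps4x, at -0.31 ± 0.253, both dim and with wide errors. Of the genes with several probe sets, those of Rpl7 disagreed most. Its dim probe set (mean signal 23.0) was at 0.57 ± 0.167 (limma adjusted p = 0.0713) and its bright one (1047) at 0.00 ± 0.0768. The 3 probe sets of Rpsa were at -0.14, -0.13 and -0.28, and those of Rpl7l1 at 0.04 and -0.04. For Rpl14 and Rps24 the second probe set was under the filter, so no comparison was made.

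Set against control level by level, the 10% diet had the lowest median after quantile normalization and trimmed mean scaling, while the 30% diet had it after median centring (-0.188 against -0.149) and on the signals as deposited (-0.058 against 0.139). Relative to the median of all tested, 10% was lowest after quantile normalization (-0.173 against -0.120 at 30%). It was also lowest in the others (-0.207 against -0.161), which share their relative values by construction and count as a single result. A difference between levels was not tested. These comparisons share the same 2 control pools with each other and with the step, so they are given side by side. At 5% 32 of 42 genes were below zero (48.5% of all tested) with a median of -0.073. At 10% this was 42 of 42 (48.6%) with a median of -0.164, at 20% 36 (48.1%) with -0.076, and at 30% 33 (49.6%) with -0.117. No member passed at any level by limma, where 0.452, 2.18, 3.8 and 4.53% of all tested did. At an unadjusted p under 0.05 there were 2, 10, 4 and 2 members, against 936, 1347, 1558 and 1746 of all 9520 tested.

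At 10% the smallest p-values were those of Rps16 (-0.40 ± 0.0966, limma adjusted p = 0.0632), Rpl41 (-0.35 ± 0.0872, adjusted p = 0.0718) and Rpl37a (-1.03 ± 0.29, adjusted p = 0.109). Without the 10% pool at 1 week, Rpl37a stood at -1.72 (adjusted p = 0.00319), a value then given by the 1 month pool alone. At 20% they were Rpl41 (-0.30), Rps16 (-0.27) and Rpl19 (-0.18), at 30% Rpl41 (-0.24), Rpl27a (-0.20) and Rps4y2 (-0.65), and at 5% Rpl41 (-0.24), Rps16 (-0.23) and Rps4y2 (-0.47), none of which passed. Above zero, the smallest p-values at 5% were those of Rpl18 (0.08), Rpl11 (0.09) and Rps29 (0.07), at 20% of Rpl7 (0.11), Rps29 (0.12) and Rpl11 (0.11), and at 30% of Rpl7l1 (0.17), Rps15 (0.04) and Rpl6 (0.04), and none passed.

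The order of the levels in single pools differed between the durations, though the 10% pool had the lowest median at each after quantile normalization. In the 10% pool at 1 week 40 of 42 genes were lower than in its control (48.5% of all tested were), and in 35 of 42 (83.3%) both arrays lay below both control arrays, against 24.7% of all tested. Its median was -0.22. In the 10% pool at 1 month 38 were lower (49.8% of all tested), and 20 had arrays apart (against 24.2%), with a median of -0.10. In the other pools at 1 week the count with arrays apart was 16 at 5% (21.3% of all tested), 20 at 20% (24.6%) and 27 at 30% (25.4%), with medians of -0.08, -0.12 and -0.15. At 1 month it was 13 at 5% (25.1%), 13 at 20% (23.9%) and 7 at 30% (22.4%), each with a median of -0.04. Arrays apart above control were seen for at most 5 members (11.9%) in any pool, against 22.4 to 26.7% of all tested.

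**Figure D3:**
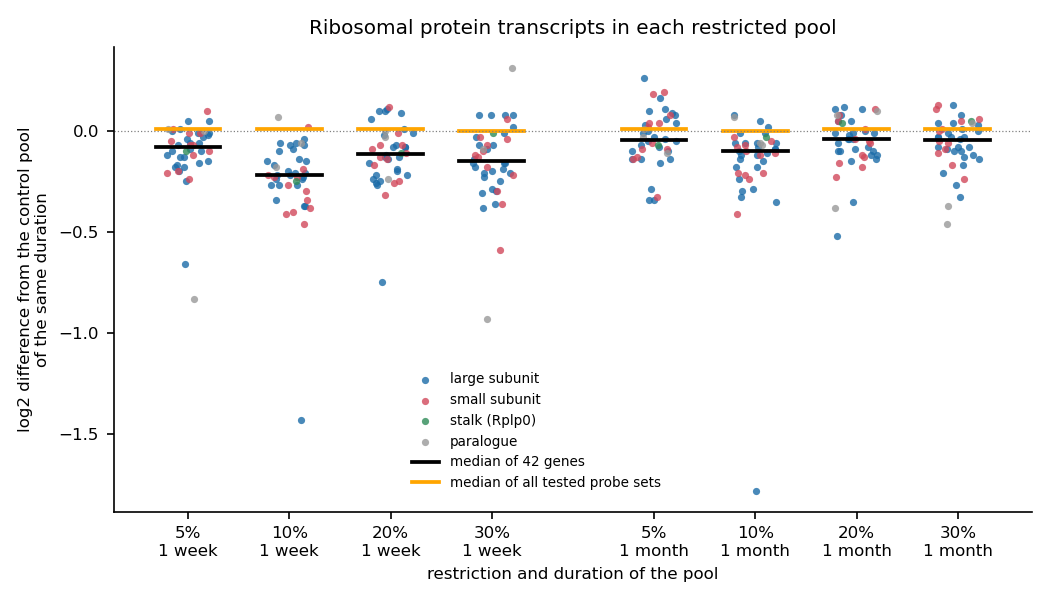
Log2 difference of each restricted pool from the control pool of its duration for 42 genes (points, coloured by role), with the median of these genes (black) and of all tested probe sets (orange). The black line is lowest at 10% for 1 week (-0.22), and at 1 month it is lowest at 10% (-0.10), with 1 point, Rpl37a, at -1.78.

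Across the 10 pools, a 10% pool had the lowest signal for 29 of 42 members (69%), against 16.5% of all tested. The 10% pool at 1 week was lowest for 16 and that at 1 month for 13. A control pool was highest for 24 members (57.1%, against 26.5%), 20 of them in the 1 week control, and lowest for 0. Of all tested, 13.4% were lowest in the 1 week control and 14% in the 1 month control. All 8 restricted pools lay below control for 12 members (28.6%), against 10.3% of all tested. By arrays, every restricted array lay below both controls for 8 members at 1 week (7.46% of all tested did) and for 5 at 1 month (8.55%). No member did so at both durations, and 2.5% of all tested did. Those at 1 week were Rpl3, Rpl19, Rpl23a, Rpl26, Rpl27a, Rpl34, Rpl35 and Rps28, and those at 1 month were Rpl37a, Rpl41, Rps3, Rps16 and Rps23.

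A difference of at least 1 on the log2 scale with arrays apart was reached by 2 members, in 1 pool each. Of all tested, 3.78, 3.62, 4.93 and 5.87% met this rule at 5, 10, 20 and 30% for 1 week, and 5.62, 5.96, 4.72 and 4.96% at 1 month. Rpl39, which lines the exit tunnel of the large subunit, was lower by 2.69-fold in the 10% pool at 1 week. The arrays of Rpl39 in that pool were unlike each other, at 27.9 and 9.57, against 35.1 and 55.1 in control. Paired arrays of Rpl39 differed in other pools too, with an SD of 0.67 on the log2 scale over the pools. Array 2 read above array 1 in every other pool, so the order was reversed in this pool. Its pools were 44.0 in control and 27.9, 16.3, 26.1 and 34.4 at 5, 10, 20 and 30%, against 28.4 in control and 22.4, 29.5, 26.5 and 24.6 at 1 month, so the 1 month pool at 10% lay above its control, and the other 3 restricted pools below it. The probe set is dim, and a difference between durations at 10% was not tested. Rpl37a was lower by 3.44-fold in the 10% pool at 1 month. With 1 pool in each condition these differences have no replicate check.

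The members gave no trend with the percent of restriction that passed. Over 30 percentage points the slope was below zero in 31 of 42 genes, against 49.4% of all tested, with a median of -0.060. No member passed by limma (3.76% of all tested did) and 4 had an unadjusted p under 0.05, against 1809 of all 9520 tested. The smallest p-values below zero were those of Rpl23a (-0.20 ± 0.0753, adjusted p = 0.178), Rpl35 (-0.16 ± 0.0734) and Rps27l (-0.32 ± 0.145). Above zero they were those of Rpl7l1 (0.19 ± 0.113, adjusted p = 0.419), Rps6 (0.12 ± 0.102) and Rpl6 (0.07 ± 0.0652). Without the 1 week control pool the median, taken relative to all tested, moved from -0.063 to -0.015.

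Duration was compared with percent restriction as a covariate, and no member passed by limma (0.336% of all tested did). At an unadjusted p under 0.05 there were 3, against 1021 of all 9520 tested. Of the members 28 of 42 were below zero, against 49.2% of all tested, with a median of -0.025. On the signals as deposited 2 of 42 were. Relative to all tested the median was -0.028, and -0.001 without the 1 week control pool. In 1 month minus 1 week pools Rpl3, a protein of the peptidyl transferase region, was at -0.17 ± 0.0495 (adjusted p = 0.199), Rpl12 at -0.22 ± 0.0878 and Rpl7a at -0.15 ± 0.063. Rpl3 read 1331 in the 1 week control and from 1129.8 to 1227 in restricted pools of that duration, and 1098 in the 1 month control and from 1041 to 1090.2 in restricted pools. Above zero the smallest p-values were those of Rpl14 (0.10), Rpl23a (0.07) and Rpl18 (0.07), and none passed. Duration and the age on the labels differ together and cannot be told apart.

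Fitted by duration, the slopes had a median of -0.105 at 1 week (33 of 42 below zero, against 50.3% of all tested) and of -0.034 at 1 month (26 below zero, against 48%). No member passed by limma at 1 week (0.714% of all tested did) or at 1 month (0.0315%). At an unadjusted p under 0.05 there were 2 and 1, against 1518 and 995 of all 9520 tested. At 1 week the smallest p-values were those of Rps15a (-0.41 ± 0.162, adjusted p = 0.247), Rpl23a (-0.25) and Rps24 (-0.26), and above zero of Rpl7l1 (0.30), Rpl12 (0.26) and Rpl6 (0.11). At 1 month they were those of Rps27l (-0.53 ± 0.193, adjusted p = 0.354), Rpl35 (-0.19) and Rpl41 (-0.22), and above zero of Rpl35a (0.21), Rpl24 (0.15) and Rplp0 (0.09). The difference between the slopes passed for no probe set of all tested (0%). The members' differences were below zero in 12 of 42 (48.9% of all tested) with a median of 0.049. An unadjusted p under 0.05 was seen for 1 member, against 525 of all 9520 tested. This was Rpl35a at 0.51 ± 0.23 (1 month minus 1 week, limma adjusted p = 0.903). Next were Rps15a (0.39) and Rps24 (0.30) above zero and Rps27l (-0.42), Rpl12 (-0.36) and Rpl23 (-0.18) below.

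At 1 week the 30% pool was also set against the 20% pool, a comparison chosen after its values were seen, with 1 pool on each side. In 12 of 42 genes both arrays of the 30% pool lay below both of the 20% pool (21% of all tested did), and in 11 both lay above (19.4%), counts near those of all probe sets. The lowest differences were those of Rps4y2 (-0.69 on the log2 scale), Rps15a (-0.48), Rpl35a (-0.39), Rps29 (-0.34) and Rpl11 (-0.32). Rps15a, a small subunit protein, read 830.4 in the control pool, then 702, 673, 769 and 552 at 5, 10, 20 and 30%, so it was lowest at 30%. With arrays apart, the highest differences were those of Rpl7l1 (0.31), Rps16 (0.29), Rpl24 (0.25), Rpl7a (0.20) and Rps6 (0.16).

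Across the 10 pools the 39 members other than paralogues had a median pairwise Pearson correlation of 0.41, with 88.8% of pairs above zero, while a sample of 1904 tested probe sets, evenly spaced through the list, gave 0.00 and 49.9%. The likeness of a member to the median of the others was highest for Rps3a (0.87) and Rpl27a (0.80) and lowest for Rpl14 (0.07) and Rpl24 (0.12). The points share 2 control pools and the scaling of each array, and the members share brightness, so these are descriptions. The step had the same median, -0.10, in the 11 genes with a C and pyrimidines at the annotated start and in the 27 matched and tested genes without.

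Mitochondrial ribosomal proteins, a set chosen after values were seen, also lay mostly below zero. Of 71 tested genes 50 were below zero in the step (49.7% of all tested) with a median of -0.073, and 0 passed by limma. At an unadjusted p under 0.05 there were 7, against 1797 of all 9520 tested. At 10% the median of the 71 genes was -0.105, against -0.164 for the cytosolic proteins, and a difference between these sets was not tested.

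Other lists of the translation machinery had medians on both sides of zero, and a difference between lists was not tested. Of all 9520 probe sets tested, 171 rose and 187 fell in the dose trend. Initiation factors, which bring the ribosome to the message, had a median step of 0.074 with 7 of 31 below zero and 0 called. Their largest steps by p were Pabpc4 (0.43 ± 0.12, limma adjusted p = 0.0592), Eif4a2 (0.29) and Eif4b (0.34), and in the dose trend Eif3j rose by 0.46 ± 0.104 (adjusted p = 0.0331) as 1 of 31. Ribosome biogenesis genes had a median step of 0.068 with 22 of 50 below zero and 0 called, led by Rrs1 (0.62, adjusted p = 0.0871), Ddx56 (0.75) and Rrp1b (1.17). In the dose trend Nop53, which handles the 5S particle, rose by 0.46 ± 0.112 (adjusted p = 0.0457) as 1 of 50. Elongation factors had a median step of -0.018 with 4 of 7 below zero and 0 called, with Eef2 at 0.25, Eef1e1 at 0.30 and Eef1g at -0.09. Of 8 factors that receive the nascent chain, Srpra, a signal recognition particle receptor subunit, fell in the dose trend by 0.44 ± 0.103 (adjusted p = 0.0372), with a list median of -0.007. By step Srprb (-0.26), Srpra (-0.24) and Naca (0.13) had the smallest p and none passed. Rack1, a scaffold on the small subunit, was at -0.15 ± 0.0773 in the step (adjusted p = 0.321).

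Regulators of translation are known to set how many ribosomes are at work. In the step 3 of 27 rose (3.16% of all tested did) and 0 fell, with a list median of -0.022. Deptor, an inhibitor of mTOR, rose by 0.94 ± 0.217 (limma adjusted p = 0.0259), Eif4ebp3, a repressor of cap-dependent initiation, by 1.28 ± 0.307 (adjusted p = 0.0299), and Eef2k, the kinase that inhibits Eef2, by 1.66 ± 0.408 (adjusted p = 0.0326). The pools of Eef2k ran from 4.44 to 21.2, on both sides of the lowest mean signal tested (11.7), so its size is uncertain. In the dose trend Eif4ebp3 rose by 1.71 ± 0.219 and Deptor by 1.02 ± 0.256, 2 of 27, where 171 of all 9520 tested rose. Of the small nucleolar RNA hosts, which carry the tract in many cases, Gas5 rose in the dose trend by 1.16 ± 0.215 (adjusted p = 0.0148) as 1 of 2, and Snhg11 was at 0.33. The signals of these 2 were low, with sums from 26.7 to 43.5 in control and from 34.2 to 69.4 in restricted pools. These lists share the control pools with the members.

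**Figure D4:**
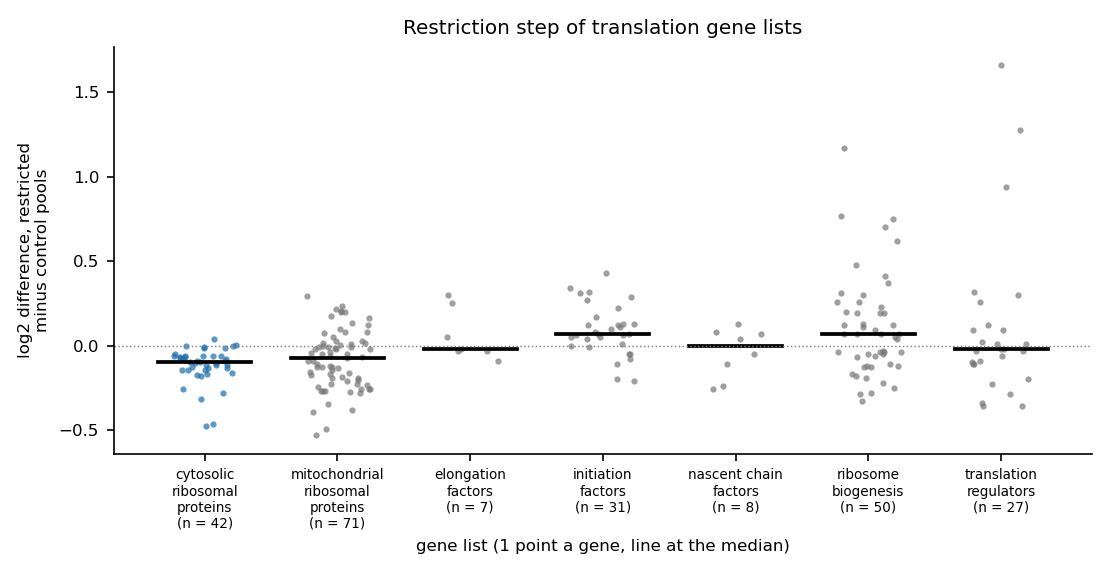
Log2 difference of restricted minus control pools (1 point a gene) in 7 lists of translation genes, with the median of each list (line). The 42 cytosolic ribosomal proteins (blue) lie almost wholly below zero (median -0.097), initiation factors and biogenesis genes have medians above zero (0.074 and 0.068), and 3 regulators lie above 0.9.

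Summed signals of some markers of other liver cells did not overlap between control and restricted pools. The share of all probe sets with such a gap was not counted, and a sum is weighted to its brightest genes. The summed signal of 4 Kupffer cell markers was 694 to 695 in control pools and 508 to 651 in restricted pools, that of 5 endothelial markers 210.3 to 259.5 and 269 to 344, and that of 4 bile duct markers, 3 of them under the filter, 66.5 to 77.0 and 42.8 to 59.9. Single markers of the endothelial and Kupffer cell lists lay on both sides of zero in the step. The only bile duct marker tested, Epcam, was at -0.37 ± 0.197 (limma adjusted p = 0.332). Of the endothelial markers Kdr rose by 0.60 ± 0.108 (limma adjusted p = 0.00899) and Stab1 was at -0.38. None of the Kupffer cell markers passed, with Lyz2 at -0.39, Csf1r at -0.41, Cd68 at 0.15 and Clec4f at 0.05. Sums overlapped for 9 hepatocyte markers (43790.3 to 44024 and 42233 to 44356), 8 stellate cell markers (411 to 547 and 385 to 616), 4 erythroid markers (1253 to 2189 and 1068 to 1972) and 9 lymphocyte markers, 7 of them under the filter (92.4 to 105 and 84.8 to 111). Their part in the ribosomal protein values was not tested, and fewer cells of a type and less RNA per cell cannot be told apart in whole liver. The ratio of the GAPDH probe sets at the 3' and 5' ends, a measure of RNA integrity, ran from 1.30 to 1.61 over pools. That of the actin probe sets ran from 2.24 to 3.08 and was lowest at 30% in each duration (2.24 and 2.29). With the GAPDH ratio as a covariate the step of Rpl41 kept its size (-0.28) and its limma adjusted p became 0.0555. With the actin ratio it was -0.29 (adjusted p = 0.0302).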

How the data were processed

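Liver RNA of 10 pools was measured on 20 arrays. The deposited intensity values are linear signals of probe sets, which the submitters' processing notes credit to MAS5, with no version or scaling target given in the sources used here. The 2% trimmed mean ran from 38.4 to 98.8 over arrays, so arrays were quantile normalized on the log2 scale, with 32 zeros raised to the array's smallest value above zero and 57 control probe sets then dropped. The upper 60% of 15866 probe sets by mean log2 signal, 9520, were tested, the lowest at a mean signal of 11.7. The arrays of a pool were averaged, and the pool was the replicate (n = 10). Linear models were fitted in R 4.3.3 with limma 3.58.1, whose eBayes step followed the variance along the mean signal. Tests were two-sided, and p-values were adjusted by Benjamini-Hochberg over all tested, with a threshold of 0.05. With 1 pool in each condition, p-values measure the scatter of pools around the model and not the spread between rats. The number of pools limits the precision. The fit was tested on simulated data.

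Members, gene lists and the promoter search were chosen with earlier results of these data known. The named genes were Rplp0, Rplp1, Rplp2, Rpsa, Rps6, Rpl5, Rpl11, Rps27a, Rpl22, Rps19 and paralogues; up to 8 members past the threshold in each direction of a test, or the 3 of smallest p where fewer than 3 passed; the 5 brightest, dimmest, most and least variable; up to 5 genes whose probe sets differ most; and 3 of smallest p in each translation list. Alternatives were other scalings, filters, variance models, blocks, covariates, choices of members and pools or arrays left out. Names came from the platform annotation. Promoters came from the RefSeq table, build GRCr8.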

Additional observations from a re-analysis of the deposited data

How the results depend on the processing

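Each comparison was repeated under 46 other settings, fewer for the levels and the pool rule. The median step of the members stayed below that of all tested in each of them (-0.133 to -0.057). Among these, the signals as deposited, median centring and trimmed mean scaling gave a single relative value by construction. The step count of 1 was not stable. It was 0 on the signals as deposited, with median centring, with no filter, with no variance trend, with the GAPDH ratio as a covariate and without both 10% pools, a setting chosen after the data were seen (Rpl41 at -0.26, adjusted p = 0.0672). It was 3 with all 20 arrays and the pool as a random block. With 1 array or 1 pool left out it ran from 0 to 1. For the 10% level the count of 0 became 1 with trimmed mean scaling (Rps16 at -0.44, adjusted p = 0.0453) and 6 with the random block, and 0 to 1 with arrays or pools left out. With the random block it was 1 at 20%, 2 at 30% and 1 for duration (Rpl3, adjusted p = 0.0279). The random block counts arrays of 1 RNA as extra values. The dose trend's median relative to all tested ran from -0.099 to -0.015 with arrays or pools left out, the latter without the 1 week control. The pool rule of size gave 2 members, 1 on the signals as deposited and 2 to 3 with an array number left out.

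Over all tested, deviations of same-numbered arrays from their pools correlated from -0.05 to 0.12. Such a value cannot exclude a shift with array number in single probe sets. The step of Rpl41 was -0.18 without the arrays numbered 2 and -0.39 without those numbered 1. With the replicate block the counts were 2 for the step, 6 at 10%, 2 at 20%, 1 at 30% and 1 for duration, and 0 for the dose trend, the slopes, their difference and the 5% level.

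Some named values changed sign in another setting, and passed the threshold neither there nor in the reported setting. With the pool as a random block, some of them passed below zero by limma. These were the step of Rpl27a (adjusted p = 0.0466), Rpl41 at 20% (adjusted p = 0.00564) and Rpl3 for duration (adjusted p = 0.0279). On the signals as deposited the step of Rpl27a was 0.05, at 20% Rpl41 was 0.07, Rps16 0.09 and Rpl19 0.20, and for duration Rpl3 was 0.01 and Rpl7a 0.05. At 30% Rps15 was -0.01 and Rpl6 -0.06 with median centring, and Rpl6 was 0.00 with trimmed mean scaling and -0.02 with the actin covariate. With arrays or pools left out, Rps15 at 30% ran from -0.06 to 0.15. The step of Rpl7l1 ran from -0.05 to 0.12, its 30% value ran from 0.00 to 0.35 and its 1 week slope from -0.03 to 0.44. At 5% Rpl11 ran from -0.03 to 0.21. The 1 month slopes ran from -0.04 to 0.35 for Rpl24, from -0.41 to 0.01 for Rpl41 and from -0.01 to 0.42 for Rpl35a, which was 0.00 with the GAPDH ratio. The slope difference of Rps27l ran from -1.08 to 0.24. The cause was not tested. Signal over background limits Rpl39, Rps27l and Rps4y2, which lie near the filter.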
